A study of Mus musculus with 12 samples.

Results

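The brains of mice under chronic unpredictable mild stress (CUMS) without krill oil, the MS_W group, were compared directly with those of unstressed mice given krill oil, the C_O group. The members were chosen by their labels. They are 6 of the 12 libraries of the series, 3 from MS_W mice (MS_W31, MS_W75 and MS_W95, named by mouse number) and 3 from C_O mice (C_O15, C_O30 and C_O72), and 21393 of 55385 listed genes could be tested. All were wild-type male mice of strain C57/BL6J, bought at an age of 8 weeks. MS_W mice went through CUMS for 4 weeks, including social isolation, and received water by gavage, whereas C_O mice received krill oil at 200 mg/kg/day for 5 weeks and no CUMS. Every mouse also went through sucrose preference, Y-maze and forced swimming tests, and was perfused with saline before the brain was taken, so these handling steps were common to both groups. The 2 groups differ in 2 treatments at once, and what each adds to a difference cannot be told apart within this comparison. Values of the untreated group on water (C_W) and of the group with both treatments (MS_O) are therefore given beside it.

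CUMS is a rodent model in which mild stressors alternate for weeks, and it is used to bring about depression-like behavior. Stress reaches the brain through the hypothalamus, where peptide neurons drive the pituitary and adrenal glands, and glucocorticoids released in return act on receptors in many neurons and glia. Krill oil carries long-chain n-3 fatty acids bound to phospholipids, which cells take up with fatty acid-binding proteins and transporters and build into membranes. A whole brain gives 1 average over regions of very different expression, and in such a sample fewer cells of a type and less RNA per cell cannot be told apart.

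Levels are FPKM, fragments scaled by transcript length and by the number of mapped fragments, as the authors estimated them. A listed value of 0.0001 stands for no estimate. A log2FC is the difference in mean log2(FPKM + 1), MS_W minus C_O, with its standard error (SE) from limma. DEGs were taken at the thresholds of the study, an unadjusted p under 0.05 and a ratio of group mean FPKM above 2 or below its inverse, but with p from limma where the study used Ballgown. Estimated counts summed to between 50912906 and 70097375 in the C_O libraries and between 51748181 and 61608502 in the MS_W libraries. The median tested gene had a log2(FPKM + 1) of 1.62 to 1.69 in C_O and 1.73 to 1.78 in MS_W, and setting these medians equal moved every log2FC by about -0.1.

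Each group held 1 library that stood apart. C_O72 and MS_W95 correlated with each other at r = 0.97 and with none of the other 10 libraries above 0.937, whereas the other 10 correlated at 0.959 or more (Pearson, across tested genes, which are not independent). A list of 22 Hox genes, which mark hindbrain and spinal cord, summed to 45.3 FPKM in C_O72 and 18.0 in MS_W95. Of the 12 that were tested, 10 were listed at 0.0001 in the other 4 libraries. Gabra6, a receptor subunit of cerebellar granule cells, was at 23.9 in C_O72 and 91.3 in MS_W95, and at most 0.129 in the other 4. Markers of the forebrain went the other way. Tbr1, a regulator of cortical projection neurons, was at 0.143 and 0.196 in C_O72 and MS_W95, and between 9.97 and 29.3 in the other 4. Thus, although every sample is labelled brain, Hox genes and Gabra6 were near 0 in 4 of the 6 libraries, and Tbr1 was near 0 in the remaining pair. Results are given for all 6 libraries and, for some genes and lists, for the 4 without this pair.

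**Figure D1:**
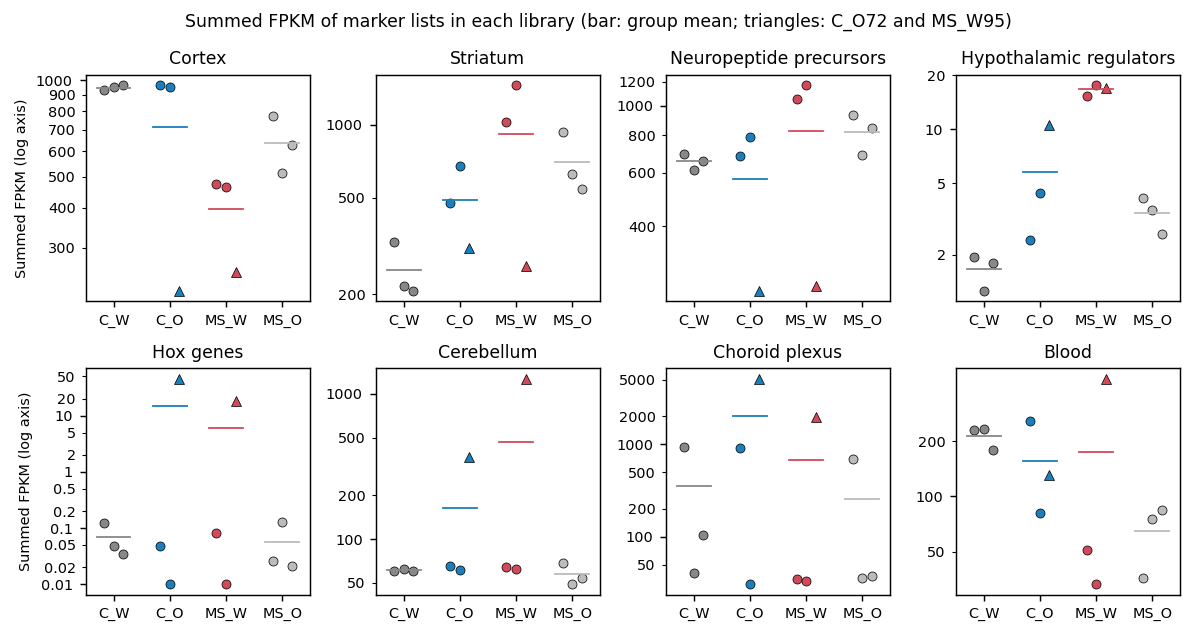
Summed FPKM (log axis) of 8 marker lists in each library of the 4 groups, with bars at group means and sums below 0.01 drawn at 0.01. The triangles, C_O72 and MS_W95, carry the Hox (45.3 and 18.0) and cerebellar (367 and 1269) transcripts and the lowest cortical sums (221 and 253) of the 6 libraries compared.

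Between MS_W and C_O, 491 DEGs were found, 2.3% of the tested genes. Of these, 339 were higher (1.58%) and 152 lower (0.711%) in MS_W. The direction of this split depended on scaling, with 123 higher and 574 lower once libraries were centred on their medians, 222 and 236 after quantile normalization, 205 and 220 by edgeR, and 245 and 275 by DESeq2. A linear model of log2(FPKM + 1) with a library size covariate, after the form Ballgown fits, gave 87 higher and 187 lower. Of these 274, 88 were among the 491. The criteria that gave 491 also called 489 unchanged genes in simulated data with the spread of each gene in the libraries. An unadjusted limma p under 0.05 was reached by 1572 genes. None passed an adjusted p of 0.05 (limma, Benjamini-Hochberg), where the smallest value was 0.304. edgeR likewise called 0, with 1285 genes at an unadjusted p under 0.05, and DESeq2 called 83. A limma fit of the 6 libraries alone gave 393 DEGs and 938 genes at an unadjusted p under 0.05. In that fit 0 genes passed the adjusted threshold. The groups did not overlap for 2472 genes (11.6%), 1937 of them higher (9.05%) and 535 lower (2.5%) in MS_W. This split also turned with scaling, to 711 higher (3.32%) and 1789 lower (8.36%) after centring, and 1089 (5.09%) and 932 (4.36%) after quantile normalization. The ratio criterion divided similar genes, with Disp2 just inside at mean FPKM of 42.6 in MS_W and 21.2 in C_O, and Mir6955 just outside at 4.94 and 2.47.

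**Figure D2:**
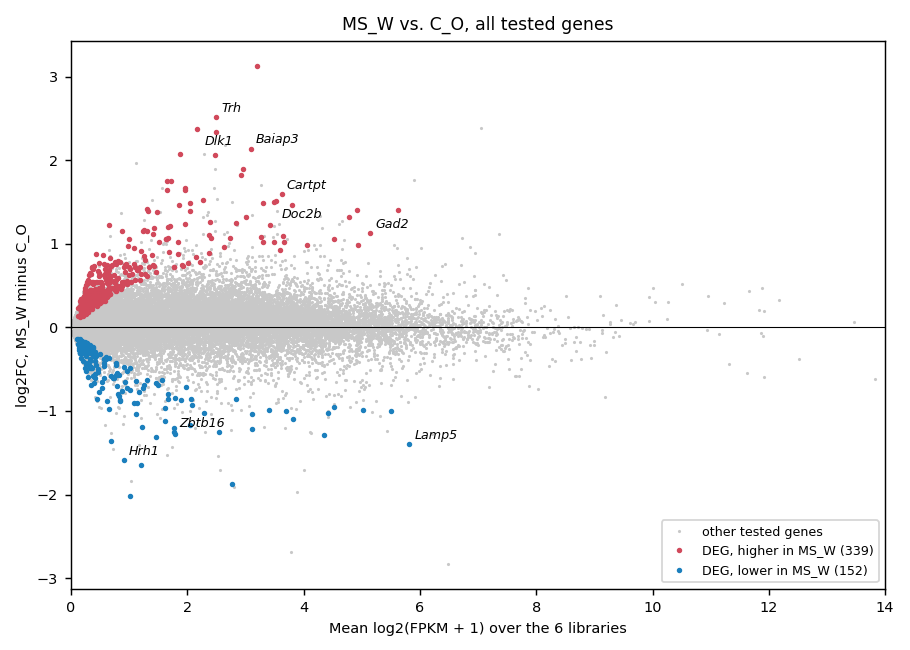
Each point is 1 of 21393 tested genes, with its mean log2(FPKM + 1) over the 6 libraries on the x axis and its log2FC, MS_W minus C_O, on the y axis. The 339 DEGs higher and 152 lower in MS_W lie mostly at low levels, and Dlk1, Baiap3 and Lamp5 are among those at higher levels.

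Most DEGs were weakly expressed. The mean FPKM of the 6 libraries was below 1 for 340 of them (4.4% of such genes), between 1 and 10 for 122 (1.33%) and 10 or more for 29 (0.644%). By gene type, 244 were protein-coding (1.6% of those tested), 120 long noncoding (4.01%), 82 pseudogenes (3.77%) and 45 other RNA (4.74%).

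Without C_O72 and MS_W95, 678 genes were DEGs higher (3.17%) and 337 lower (1.58%) in MS_W, and 69 genes (0.323%) passed the adjusted threshold, 65 of them higher. The 2 libraries left out, 1 from each group, were also compared for these genes. Tbr1 was near 0 and Nkx2-1 and Lhx8 had no estimate in this pair. It therefore cannot decide whether differences in transcripts of such regions recur. Of the 65, 36 were higher and 25 lower in MS_W95 than in C_O72, a share of 55.4% where all tested genes had 54.9%. Their median log2 difference was 1.05 in the 4 libraries and 0.04 in that pair, and 0.04 is also the median of all tested genes in the pair. The 4 genes that passed as lower split into 2 and 2. Of the 65, 4 had no estimate in either library of the pair and could show no difference, and 47 reached 1 FPKM in at least 1 of them. 

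Dlk1, an imprinted gene for a secreted and membrane-bound inhibitor of Notch-type signaling that several hypothalamic neurons express, had the largest log2FC among DEGs at a mean FPKM of at least 1 whose groups did not overlap. It lies on chromosome 12 (ENSMUSG00000040856, 109452823 to 109463336, GRCm38). Its FPKM was 9.46, 9.72 and 8.67 in MS_W31, MS_W75 and MS_W95, and 0.253, 0.221 and 4.08 in C_O15, C_O30 and C_O72. The MS_W mice were thus nearly alike, while among C_O mice C_O72 alone came close to them. The mean was 9.28 ± 0.544 in MS_W and 1.52 ± 2.22 in C_O (SD, n = 3), and the log2FC was 2.38 (SE 0.446, adjusted p = 0.367 by limma). Without C_O72 and MS_W95 it was 3.10 (adjusted p = 0.000676 by limma, and 0.000251 to 0.995 over all alternatives). C_W mice had 0.229, 0.22 and 0.111 and MS_O mice 0.603, 0.588 and 0.0823, so that against C_W the log2FC was 3.12 (SE 0.446) for MS_W and 0.74 (SE 0.446) for C_O.

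The promoter window of Dlk1 is shown because this gene leads the list, and those of Cartpt and Th, described further on, because among the DEGs looked up they hold a full cAMP response element (CRE), the site of CREB-type factors. Windows run from 250 bases before to 50 bases after a RefSeq start (GRCm38.p6), 5′ to 3′ on the strand of the gene. Capitals mark the full CRE, TGACGTCA, in Cartpt and Th, and its core, TGACG, in Dlk1, each searched on both strands.
Dlk1, chr12:109452573-109452872, plus strand: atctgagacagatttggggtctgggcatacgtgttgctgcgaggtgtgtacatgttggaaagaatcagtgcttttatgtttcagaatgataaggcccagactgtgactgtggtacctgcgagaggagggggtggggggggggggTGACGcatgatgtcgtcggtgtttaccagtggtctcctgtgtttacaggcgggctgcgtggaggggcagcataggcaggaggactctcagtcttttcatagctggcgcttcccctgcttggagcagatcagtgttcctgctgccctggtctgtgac
Cartpt, chr13:99900634-99900933, minus strand: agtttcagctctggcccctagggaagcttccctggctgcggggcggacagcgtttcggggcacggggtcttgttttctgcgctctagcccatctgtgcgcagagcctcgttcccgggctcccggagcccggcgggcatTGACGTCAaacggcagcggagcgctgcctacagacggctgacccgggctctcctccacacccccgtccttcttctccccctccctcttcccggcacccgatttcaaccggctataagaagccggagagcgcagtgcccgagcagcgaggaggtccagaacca
Th, chr7:142899946-142900245, minus strand: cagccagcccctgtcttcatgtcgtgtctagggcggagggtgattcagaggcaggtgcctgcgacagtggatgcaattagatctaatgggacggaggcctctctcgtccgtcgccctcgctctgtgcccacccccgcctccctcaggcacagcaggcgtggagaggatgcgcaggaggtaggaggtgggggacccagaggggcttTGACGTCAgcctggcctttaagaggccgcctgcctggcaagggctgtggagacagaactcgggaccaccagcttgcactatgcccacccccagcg
Of 158 genes looked up, 115 had a window. The full CRE stood in windows of 4 of these genes, Cartpt, Th, Sst and Gpr6, the last 2 of which were no DEGs (log2FC -0.15 and 1.12), and in 1.79% of all 32841 windows, and the core, which the full site contains, in 36 and in 20.8%. A glucocorticoid response element (GRE, both of its inverted arms without mismatch) stood in none of the 115 and in 0.00913% of all windows. Some of the 115 genes had more than 1 window, so counts of genes cannot be set directly against shares of windows. The matches are letters in a window and not measured binding.

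Of 25 tested imprinted genes, which are expressed from 1 parental copy and many of which act in growth, feeding and maternal care, 6 were DEGs and all 6 were higher in MS_W (background 1.58%). The groups did not overlap for 10 higher and 1 lower (background 9.05% and 2.5%), and for 8 and 1 after centring (3.32% and 8.36%). The median log2FC of the list was 0.46, where all tested genes had 0.05. Peg10, a gene derived from a retrotransposon, was at 12.4, 13.8 and 9.52 in the MS_W mice and at 3.33, 2.73 and 7.2 in C_O15, C_O30 and C_O72. Its mean was 11.9 ± 2.19 in MS_W and 4.42 ± 2.42 in C_O (SD, n = 3), with a log2FC of 1.33 (SE 0.267, adjusted p = 0.367 by limma). Here too C_O72 was the C_O mouse nearest to MS_W, without overlap. Calcr, the calcitonin receptor, was at 1.3, 1.29 and 0.836 in MS_W and at 0.0001, 0.0829 and 0.587 in C_O15, C_O30 and C_O72. It was listed at 0.0001 in all 3 C_W mice.

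Further imprinted DEGs, chosen after their values were seen, were Magel2, a ubiquitin ligase regulator of hypothalamic secretion, Zim1 and Asb4. Magel2 was at 2.49, 2.53 and 1.08 in MS_W and at 0.254, 0.413 and 1.01 in C_O, so that MS_W95 and C_O72 nearly met. Peg3, Grb10, Impact and Blcap had no overlap either but ratios of group means under 2. Peg3, for instance, was at 28.5, 23.2 and 31.1 in MS_W and 18.4, 16.5 and 22.9 in C_O. Snrpn, the most abundant member, was the 1 gene lower without overlap, at 337, 349 and 342 in MS_W against 402, 351 and 380 in C_O, and was no DEG. Without C_O72 and MS_W95 the list had 7 DEGs, all higher (background 3.17%). In MS_W95 against C_O72 alone, 15 of the 25 were higher (background 54.9%), with a median difference of 0.05.

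Baiap3, which takes part in dense-core vesicle traffic, was at 20.6, 17.4 and 13.4 in MS_W and at 0.501, 4.01 and 7.88 in C_O, with a log2FC of 2.14 (SE 0.505, adjusted p = 0.513 by limma). The lowest MS_W value was above the highest C_O value, which was that of C_O72. In C_W it was 1.49, 1.35 and 0.746. The log2FC against C_W was 3.04 (SE 0.505) for MS_W and 0.90 (SE 0.505) for C_O. Gpr101, an orphan receptor, and Irs4, an adaptor of insulin-type receptors, were chosen after their values were seen. Gpr101 was at 3.97, 3.36 and 2.09 in MS_W and at 0.0522, 0.632 and 1.17 in C_O, and Irs4 at 2.61, 2.22 and 1.04 against 0.081, 0.525 and 0.59.

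AW551984 was at 7.31, 6.34 and 8.03 in MS_W and at 0.37, 1.76 and 5.10 in C_O, again without overlap. Ecel1, an endopeptidase of neurons, and Arhgap36, a regulator of protein kinase A and hedgehog signaling, were also among the genes with the largest log2FC in the 4 libraries but overlapped between the groups when all 6 were used. Ecel1 was at 12.9, 15.8 and 4.77 in MS_W and at 1.04, 3.79 and 9.34 in C_O, so that C_O72 lay above MS_W95. For Arhgap36 the highest of the 6 values, 6.23, was that of C_O72, against 4.70, 5.05 and 5.16 in MS_W and 0.11 and 1.01 in the other C_O mice.

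**Figure D3:**
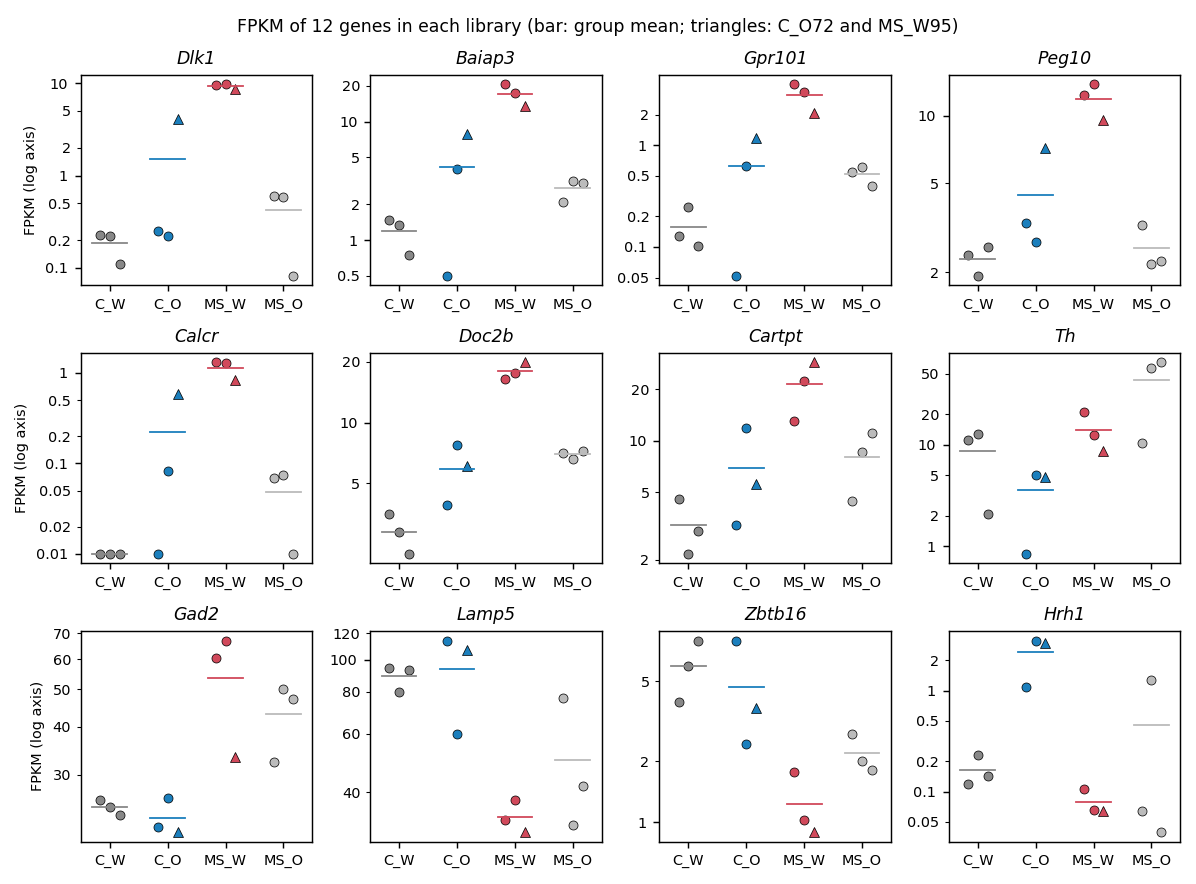
FPKM (log axis) of 12 genes in each library of the 4 groups, with bars at group means, triangles for C_O72 and MS_W95, and values below 0.01 drawn at 0.01. The MS_W and C_O points do not overlap in any of the 12 panels, and in Dlk1, Peg10 and Calcr the C_O triangle (4.08, 7.2 and 0.587) lies nearer to MS_W than the other C_O points do.

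Of 10 tested regulators of hypothalamic neurons, 4 were DEGs, all higher in MS_W (background 1.58%), with a median log2FC of 0.55. For 3 of the 4 the difference came from MS_W31 and MS_W75 alone. Nkx2-1, which specifies ventral hypothalamus and basal forebrain, was at 1.37 and 1.59 in these libraries, at 0.0817 and 0.135 in C_O15 and C_O30, and listed at 0.0001 in both MS_W95 and C_O72. Lhx8, a regulator of cholinergic forebrain neurons, was at 3.08 and 3.99 against 0.111 and 0.656, and was also listed at 0.0001 in MS_W95 and C_O72. Fezf1 and Gsx1 were chosen after their values were seen. Fezf1 was listed at 0.0001 in every C_O library and in MS_W95, and was at 0.821 and 0.694 in MS_W31 and MS_W75. Gsx1 was at 0.362, 0.271 and 0.152 in MS_W and 0.107, 0.134 and 0.0368 in C_O, without overlap. Nkx2-2, the most abundant of the list, overlapped at 1.28, 1.65 and 3.44 against 1.06, 1.06 and 2.66. In the 4 libraries 8 of the 10 were DEGs, all higher (background 3.17%). In MS_W95 against C_O72 alone 5 of the 10 were higher (background 54.9%) and 2 lower. The summed FPKM of all 18 genes of the list, tested or not, was 15.3, 17.6 and 17 in MS_W and 2.41, 4.43 and 10.5 in C_O. In C_W it was 1.26 to 1.93. In MS_W95 and C_O72, where Nkx2-1 and Lhx8 had no estimate, the sum came from other members, such as Nkx2-2. Similar sums in the 3 MS_W mice therefore do not stand for the same genes.

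Neuropeptide precursors are cut into the secreted peptides through which hypothalamic and other neurons signal. Of 31 tested, 5 were DEGs, all higher in MS_W (background 1.58%), and the median log2FC was 0.48. In the 4 libraries 15 were DEGs higher and 3 lower (background 3.17% and 1.58%). In MS_W95 against C_O72 16 of the 31 were higher (background 54.9%). Trh, the precursor of thyrotropin-releasing hormone, had the largest log2FC of the list, at 28.3, 20.3 and 2.91 in MS_W and 0.77, 4.37 and 0.387 in C_O. MS_W95 lay within the range of C_O. The mean was 17.2 ± 13 in MS_W and 1.84 ± 2.2 in C_O (SD, n = 3), and the log2FC was 2.51 (SE 0.913, adjusted p = 0.623 by limma). C_W mice had 7.44, 11.5 and 1.83 and MS_O mice 8.84, 37.4 and 53.0. Cartpt, the precursor of an appetite-reducing peptide whose promoter is shown above, was at 13, 22.4 and 28.8 in MS_W and at 3.21, 11.9 and 5.55 in C_O, without overlap. Its log2FC was 1.59 (SE 0.445, adjusted p = 0.570 by limma), and against C_W it was 2.38 (SE 0.445) for MS_W and 0.79 (SE 0.445) for C_O. Unlike Trh, Cartpt was highest in MS_W95, and its log2 difference between MS_W95 and C_O72 was 2.18 against 1.29 in the 4 libraries.

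Other precursors were chosen after their values were seen. Ucn3, for a ligand of the type 2 corticotropin-releasing hormone receptor, was at 1.09 and 0.86 in MS_W31 and MS_W75 and listed at 0.0001 in the other 10 libraries. Hcrt, for the orexins that keep mice awake, was at 5.60, 0.858 and 0.144 in MS_W and at 0.0877 in C_O72, and was listed at 0.0001 in C_O15 and C_O30. Gnrh1, the reproductive releasing hormone, was a DEG as well, at 2.46, 1.58 and 0.471 in MS_W and 0.318, 0.60 and 0.213 in C_O. Avp and Oxt, the vasopressin and oxytocin precursors of the same hypothalamic nuclei, did not meet the DEG criteria. Avp was at 32.3, 59.3 and 0.185 in MS_W and at 0.556, 7.00 and 1.06 in C_O, and Oxt at 20.2, 32.7 and 0.392 against 0.177, 5.31 and 0.786. For both, the lowest MS_W value was that of MS_W95. Sst, the most abundant precursor, was at 265, 259 and 59.7 in MS_W and 231, 270 and 90.1 in C_O.

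Peptides act through G protein-coupled receptors, and of 42 tested peptide receptors 8 were DEGs, all higher in MS_W (background 1.58%). The median log2FC was 0.17, against 0.05 for all genes. Besides Calcr the rule named Tacr3, the receptor of neurokinin B, which was at 1.34, 2.30 and 1.76 in MS_W and 0.286, 0.392 and 1.43 in C_O. The groups overlapped, as C_O72 lay above MS_W31. The other 6 were Galr1, Sstr5, Tacr1, Trhr, Cckar and Prlhr, chosen after their values were seen, of which Sstr5 and Trhr did not overlap between groups. Trhr, which binds the Trh product, was at 1.37, 0.69 and 0.591 in MS_W and 0.187, 0.299 and 0.521 in C_O. Adcyap1r1, the most abundant of the list, was at 40.5, 35.2 and 29.5 against 21.9, 30.4 and 34.9. In the 4 libraries 13 of the 42 were DEGs higher and 1 lower (background 3.17% and 1.58%). In MS_W95 against C_O72 17 of the 42 were higher (background 54.9%).

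Among 32 tested receptors of monoamines and acetylcholine, 2 were DEGs higher and 1 lower (background 1.58% and 0.711%). Hrh1, the histamine H1 receptor, was the lower one, at 0.107, 0.0662 and 0.0639 in MS_W and 1.08, 3.13 and 2.98 in C_O. The C_O mean of 2.40 ± 1.14 was 30.3 times the MS_W mean of 0.079 ± 0.0241 (SD, n = 3), with a log2FC of -1.59 (SE 0.313, adjusted p = 0.367 by limma). Both libraries that stood apart followed their groups here. The C_W mice, at 0.118, 0.229 and 0.144, were near MS_W, and the log2FC against C_W was -0.11 (SE 0.313) for MS_W and 1.48 (SE 0.313) for C_O. In MS_O it was at 1.28 in 1 mouse and at 0.0636 and 0.0397 in the other two. Chrm5, the muscarinic M5 receptor, was at 0.562, 0.634 and 0.254 in MS_W and 0.0593, 0.0624 and 0.119 in C_O. The serotonin receptor gene Htr4 was at 0.61, 0.886 and 0.321 against 0.159, 0.287 and 0.20. Hrh3, the most abundant of the list, overlapped at 31.7, 24.2 and 5.71 against 28.2, 36.7 and 9.11.

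Gad2 makes the enzyme that forms GABA in nerve endings and was the 1 DEG of 12 tested transmitter identity genes (background 1.58%). It was at 60.4, 67.0 and 33.3 in MS_W and at 21.9, 26.1 and 21.3 in C_O, with means of 53.6 ± 17.9 and 23.1 ± 2.59 (SD, n = 3). All MS_W mice were above all C_O mice, and the log2FC was 1.12 (SE 0.242, adjusted p = 0.451 by limma). C_W mice had 25.8, 24.8 and 23.6, so C_O and C_W were alike in level, with a log2FC of -0.10 (SE 0.242) for C_O against C_W and 1.02 (SE 0.242) for MS_W. Gad1, chosen after its values were seen, was at 106, 97.6 and 68.7 against 51.7, 51.6 and 36.0, a ratio of means just under 2. Slc17a7, the main vesicular glutamate transporter of the cortex and the most abundant of the list, was at 106, 100 and 41.5 in MS_W and 179, 314 and 28.1 in C_O. In the 4 libraries 5 of the list were DEGs higher and 1 lower (background 3.17% and 1.58%). In MS_W95 against C_O72 5 of 12 were higher (background 54.9%).

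Th, the first enzyme of dopamine and noradrenaline synthesis, was the 1 DEG among 16 tested genes of monoamine and glycine neurons (background 1.58%). It was at 21.2, 12.5 and 8.66 in MS_W and at 0.841, 5.07 and 4.83 in C_O, with a log2FC of 1.83 (SE 0.781, adjusted p = 0.666 by limma). Its values did not overlap but varied within each group and even more in MS_O, at 10.4, 56.6 and 64.9. C_W mice had 11.1, 12.8 and 2.09. Eomes, a regulator of olfactory bulb projection neurons, was the 1 DEG of the 14 olfactory bulb genes (background 1.58%). It had a like order, at 6.53, 2.80 and 4.88 in MS_W, 0.0205, 1.21 and 1.47 in C_O, and 2.64, 17 and 17 in MS_O. The summed level of the olfactory bulb list was 240, 147 and 219 in MS_W and 28.7, 81.3 and 164 in C_O, and moved with Th in C_O15, the lowest of the 6 for both. The part of bulb tissue in these values was not tested.

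Lists of other forebrain regions moved in opposite directions without giving many DEGs. All 16 tested cortical genes had a log2FC below 0, with a median of -0.62, and 1 was a DEG (background 0.711%). This was Lamp5, a membrane protein of upper-layer neurons and some interneurons, at 33.0, 37.9 and 30.4 in MS_W and 114, 60.0 and 107 in C_O. The means were 33.8 ± 3.83 and 93.6 ± 29.3 (SD, n = 3), and the log2FC was -1.40 (SE 0.307, adjusted p = 0.456 by limma). C_O72 had one of the high values although the cortical sum was lowest there. C_W mice had 94.5, 79.9 and 92.9, with a log2FC against C_W of -1.38 (SE 0.307) for MS_W and 0.02 (SE 0.307) for C_O. The cortical sum was 474, 465 and 253 in MS_W and 965, 954 and 221 in C_O. In the 4 libraries 7 of the 16 were DEGs lower (background 1.58%) and none higher (background 3.17%). In MS_W95 against C_O72, 11 of the 16 were higher (background 54.9%). Tbr1 was near 0 in both of these libraries, and Lamp5 alone gave 107 of the 221 in C_O72. This pair therefore cannot decide the direction of cortical transcripts.

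Of 18 tested genes of striatal medium spiny neurons, 17 had a log2FC above 0, with a median of 0.73, and none was a DEG. Penk, the enkephalin precursor and the most abundant of them, was at 349, 468 and 84.9 in MS_W and 90.1, 181 and 82.8 in C_O. In the 4 libraries all 18 were higher without overlap (background 33.4%) and 9 were DEGs (3.17%). In MS_W95 against C_O72, 10 of 18 were higher (background 54.9%), with a median difference of 0.04. The striatal sum was 1029 and 1457 in MS_W31 and MS_W75 and 477 and 675 in C_O15 and C_O30, and in these 4 libraries the cortical sum was lower where the striatal sum was higher. Whether the pieces of brain taken had the same regional makeup was not tested.

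**Figure D4:**
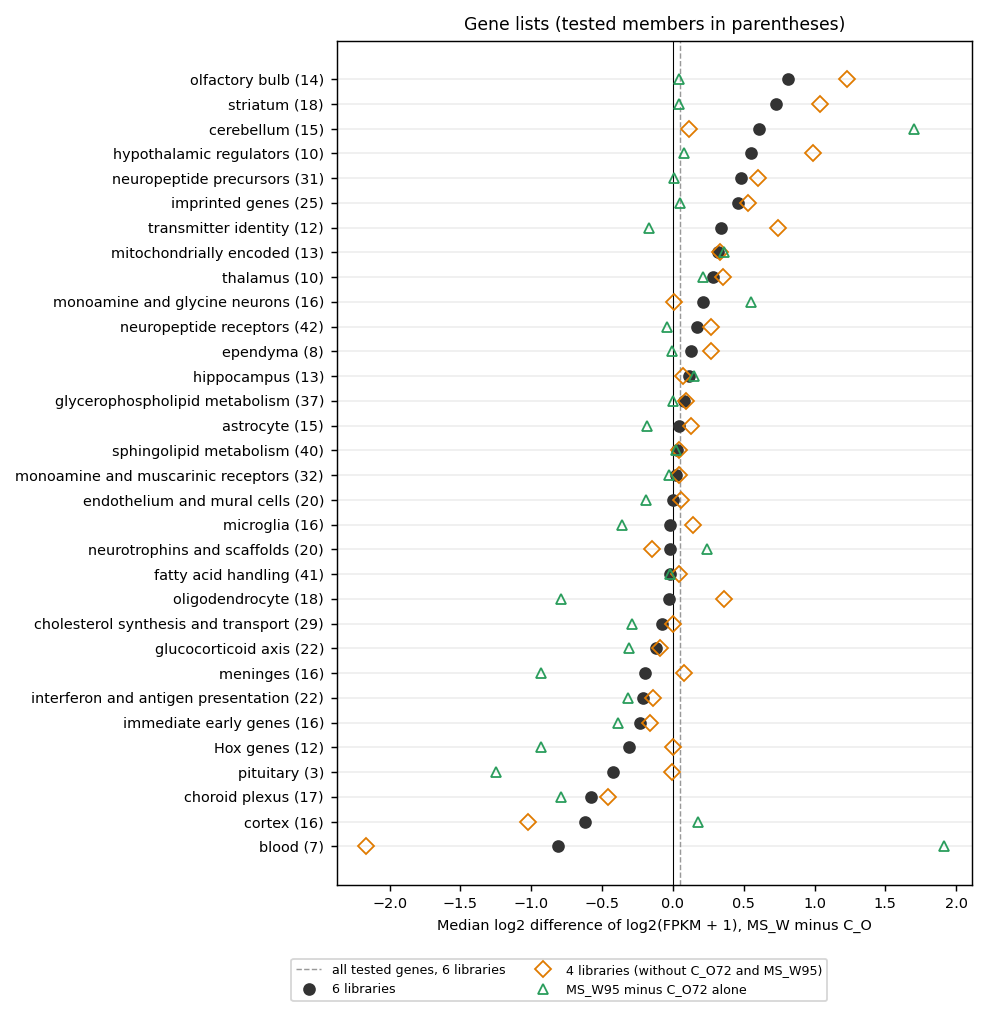
Median log2 difference, MS_W minus C_O, of the tested members of 32 gene lists in all 6 libraries (circles), in the 4 libraries without C_O72 and MS_W95 (diamonds) and in MS_W95 minus C_O72 alone (triangles). Striatal genes lie at 0.73, 1.04 and 0.04, cortical genes at -0.62, -1.02 and 0.18, and mitochondrially encoded genes at 0.32, 0.33 and 0.36.

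Regions and cell types held by few libraries gave wide differences and few DEGs. All 15 cerebellar genes had a log2FC above 0 (14 under quantile normalization or centring) with no DEG, since their sum was 1269 in MS_W95, 367 in C_O72 and 61.4 to 65.4 in the other 4. Choroid plexus genes, of the epithelium that makes cerebrospinal fluid, had a median log2FC of -0.58. Ttr, their most abundant transcript, was at 5.69, 2.16 and 1784 in MS_W and at 804, 2.51 and 4772 in C_O. The 1 DEG of the 17 was the prolactin receptor gene Prlr, higher in MS_W (background 1.58%). It was at 0.356, 0.215 and 0.461 against 0.0539, 0.00972 and 0.138, and did not follow Ttr. None of 3 pituitary hormone genes was a DEG, and Gh was at 47.3 in C_O72 and at most 0.206 in the other 5. Blood transcripts also differed between libraries, with Hbb-bs, an adult globin, at 9.57, 4.54 and 136 in MS_W and 83.9, 18.7 and 33.6 in C_O. Hba-a2, another adult globin, was at 7.94, 2.26 and 107 against 58.3, 16.2 and 27.8. No blood gene was a DEG in the 6 libraries, and the median of the list, -0.81, came to 0.00 by edgeR. In the 4 libraries without C_O72 and MS_W95, 4 of the 7 tested were DEGs, all lower in MS_W (background 1.58%). In MS_W95 against C_O72, 5 of the 7 were higher (background 54.9%). Among 10 thalamic and 13 hippocampal genes, 1 of each was a DEG, higher in MS_W (background 1.58%). These were Tcf7l2, a regulator of thalamic neurons, at 0.643, 0.817 and 1.84 against 0.258, 0.442 and 0.562, and C1ql2, a secreted synaptic protein of the dentate gyrus, at 1.51, 1.15 and 1.87 against 0.259, 0.177 and 1.16.

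Glial and vascular lists had medians from -0.20 to 0.13 and 1 DEG. None was found among 18 oligodendrocyte, 15 astrocyte, 20 endothelial and mural, 8 ependymal and 16 meningeal genes. The oligodendrocyte median of -0.03 joined opposite directions. In the 4 libraries without C_O72 and MS_W95 all 18 had a log2FC above 0, with a median of 0.36. In MS_W95 against C_O72 all 18 were lower, with a median of -0.79, where 54.9% of all tested genes were higher. By edgeR and DESeq2 all 18 were below 0. Of 16 microglial genes 1 was a DEG, lower in MS_W (background 0.711%). Cx3cr1, the fractalkine receptor, was at 2.18, 1.29 and 0.573 in MS_W and at 1.20, 10.2 and 4.69 in C_O, which overlap. None of 16 immediate early genes, which neuronal activity induces, was a DEG, and the list had a median log2FC of -0.23. None of 20 neurotrophin and postsynaptic scaffold genes was a DEG in the 6 libraries, and 2 were in the 4 libraries, both higher (background 3.17%).

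The glucocorticoid axis had 1 DEG higher and 2 lower of 22 tested (background 1.58% and 0.711%). The higher one was Ucn3. Zbtb16, a zinc finger factor that glucocorticoids induce in many cells, was at 1.77, 1.03 and 0.893 in MS_W and 7.95, 2.43 and 3.70 in C_O. The means were 1.23 ± 0.473 and 4.69 ± 2.89 (SD, n = 3), the groups did not overlap, and the log2FC was -1.25 (SE 0.334, adjusted p = 0.570 by limma). In the 4 libraries it was -1.23 and between MS_W95 and C_O72 -1.31. C_W mice had 3.93, 5.96 and 7.95, with a log2FC against C_W of -1.62 (SE 0.334) for MS_W and -0.36 (SE 0.334) for C_O. Plin4, a lipid droplet protein also induced by glucocorticoids, was at 1.55, 0.459 and 0.428 in MS_W and 3.14, 1.18 and 8.03 in C_O. MS_W31 lay above C_O30. The log2FC of Plin4 was -1.31 (SE 0.425, adjusted p = 0.613 by limma). Mt2, a metallothionein and the most abundant of the list, was at 90.2, 100 and 177 against 95.3, 93.6 and 267. The median log2FC of the whole list was -0.12.

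Lipid genes were compared because krill oil supplies fatty acids and phospholipids. Of 41 tested genes of fatty acid uptake, activation, desaturation and elongation, 2 were DEGs, both higher in MS_W (background 1.58%). Fabp7, the brain fatty acid-binding protein of radial glia and astrocytes, was at 30.3, 18.9 and 18.9 in MS_W and 3.58, 14.6 and 7.23 in C_O. The groups did not overlap, and the log2FC was 1.47 (SE 0.561, adjusted p = 0.650 by limma). C_W mice had 9.98, 16.4 and 7.61 and MS_O mice 16.8, 46.2 and 79.5. The log2FC against C_W was 0.97 (SE 0.561) for MS_W and -0.49 (SE 0.561) for C_O. The olfactory bulb sum was likewise lowest of the 6 libraries in C_O15, at 28.7, and was 114, 529 and 532 in MS_O. That sum did not order C_O30 and C_O72 as Fabp7 did, and the part of bulb tissue in the Fabp7 level was not tested. Cd36, a fatty acid translocase, was at 0.346, 0.189 and 0.452 against 0.0232, 0.205 and 0.161, which overlap. Scd2, a desaturase and the most abundant of the list, was at 296, 298 and 69.1 in MS_W and 244, 230 and 468 in C_O.

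No DEG was found among 40 sphingolipid, 37 glycerophospholipid and 29 cholesterol genes, where the background of 2.3% would correspond to few in each list. Their median log2FC was 0.03, 0.08 and -0.08. The first fell below 0 under quantile normalization, centring, edgeR and DESeq2, and the second under centring, so neither has a direction. St3gal5, the synthase of the ganglioside GM3 and the most abundant sphingolipid gene, was at 49.0, 55.1 and 51.4 in MS_W and 64.3, 61.4 and 42.2 in C_O. Cds2, a phosphatidylinositol synthesis enzyme, was at 75.2, 68.1 and 74.1 against 64.8, 67.7 and 63.2, without overlap but with a log2FC of 0.15 (SE 0.0937, adjusted p = 0.759 by limma).

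All 13 mitochondrially encoded protein genes had a log2FC above 0, with a median of 0.32 (12 of 13 above 0 with libraries centred on their medians, by edgeR and by DESeq2), and 7 were higher in every MS_W mouse than in any C_O mouse (background 9.05%). The latter count depended on scaling, with 3 of 13 after centring (3.32%) and 1 of 13 after quantile normalization (5.09%). None was a DEG. mt-Nd3, for example, a subunit of complex I chosen after its values were seen, was at 1057, 1212 and 1367 in MS_W and 820, 776 and 1039 in C_O. The most abundant, mt-Co1, overlapped at 10368, 12270 and 12177 against 10518, 10997 and 11689. Mitochondrial transcripts made up 16.0% to 17.5% of all FPKM in MS_W and 13.3% to 15.2% in C_O. The share was 14.9% to 17.3% in C_W and 13.2% to 17.3% in MS_O, so each of these groups overlapped both ranges. Of 22 interferon and antigen presentation genes, 1 was a DEG, lower in MS_W (background 0.711%). In every MS_W mouse 5 of the 22 were lower (background 2.5%), against 7 after centring (8.36%) and 5 after quantile normalization (4.36%). The DEG, Usp18, which removes the ubiquitin-like ISG15 from proteins, was at 0.228, 0.304 and 0.325 in MS_W and 0.539, 0.728 and 0.915 in C_O. B2m, the light chain of class I molecules, was at 74.8, 72.0 and 89.6 against 91.3, 86.3 and 111.

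Doc2b and Ahi1, chosen after their values were seen, had the smallest p of the comparison. Doc2b, a calcium sensor of spontaneous vesicle release (chromosome 11, 75768966 to 75796049), was at 16.4, 17.7 and 19.9 in MS_W and 3.91, 7.72 and 6.07 in C_O, with a log2FC of 1.5 (SE 0.196, adjusted p = 0.304 by limma). The difference was 1.46 in the 4 libraries and 1.57 between MS_W95 and C_O72, so the pair that stood apart showed it to the same extent. MS_O mice, at 7.07, 6.59 and 7.25, lay near C_O and C_W mice, at 3.54, 2.87 and 2.24, below them. Ahi1, a ciliary protein also known in hypothalamic neurons, was at 44.3, 42.5 and 40.1 against 16.9, 21.6 and 24.8, with a log2FC of 0.99 (SE 0.140, adjusted p = 0.308 by limma). C_W and MS_O mice lay between 17 and 24.5. Thus in both genes the 3 MS_W libraries lay above the other 9.

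Some genes took separate levels that did not follow regions. Tnpo1, a nuclear import receptor, was at 6.30, 5.97 and 7.21 in MS_W and 0.71, 0.577 and 1.10 in C_O, but C_W mice were at 5.24, 0.505 and 0.847. Its log2FC was 2.07 (SE 0.421, adjusted p = 0.367 by limma). Nek7, a kinase of the inflammasome and spindle chosen after its values were seen, was at 4.53, 4.89 and 5.63 in MS_W and 1.13, 0.874 and 1.56 in C_O, with C_W at 5.80, 5.57 and 6.58. Against C_W the log2FC of Nek7 was -0.22 (SE 0.375) for MS_W and -1.68 (SE 0.375) for C_O. Creb1, a CREB factor also chosen after its values were seen, was at 0.366, 1.14 and 0.271 in MS_W and 2.95, 2.57 and 2.17 in C_O, while C_W mice had 2.97, 2.84 and 0.321. In Tnpo1 and Creb1 the C_W libraries were split between both levels, whereas in Nek7 all 3 were at that of MS_W.

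Sept2, a septin of the cytoskeleton, shows how such levels can rest on annotation. The table holds 2 overlapping gene records of this symbol on the same strand of chromosome 1. In one (ENSMUSG00000026276) the level was 5.33, 7 and 5.5 in MS_W and 1.53, 1.05 and 0.971 in C_O. In the other (ENSMUSG00000116048) it was 3.1, 0.0001 and 10.5 in MS_W and 10.4, 10.6 and 18 in C_O. The records thus went in opposite directions, and since fragments shared by both can be assigned to either, the level of Sept2 is uncertain. Gm28051, which had the largest log2FC of the genes named as lower, was listed at 0.0001 in all MS_W mice and was at 3.48, 2.52 and 3.20 in C_O. It spans Gm20604, Gon7 and Moap1 on the same strand, none of which was lower in MS_W in such a way, and its level is equally uncertain. Gm38182, listed at 0.0001 in all MS_W mice and at 8.84, 0.456 and 0.187 in C_O, lies within the gamma protocadherin cluster with the same limit. Gm23472 was at 2.33, 0.982 and 5.83 against 11.8, 8.93 and 16.5, and Gm13054, which overlaps Nppa on the opposite strand, at 0.214, 0.144 and 0.589 against 3.35, 3.88 and 2.21. Gm15564, among the largest differences in the 4 libraries, overlapped at 14.6, 0.0513 and 24.5 against 15, 45.6 and 32.4. Higher without overlap were also Gm10108, at 11.9, 5.54 and 16.3 against 1.13, 0.754 and 4.38, and the pseudogene Rpl30-ps9, at 14.4, 16.2 and 11.8 against 4.98, 0.372 and 7.07.

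A selection of 12 KEGG pathways of transmitters, signaling and lipids, made after the values were seen, was counted with the annotation of the table. Neuroactive ligand-receptor interaction had 19 DEGs higher and 3 lower in MS_W of 236 tested (background 1.58% and 0.711%). Calcium signaling had 9 higher and 1 lower of 162, and the oxytocin pathway 4 and 0 of 136. The cholinergic synapse had 2 and 2 of 105, the dopaminergic synapse 3 and 2 of 119, cAMP signaling 2 and 1 of 180, and Wnt signaling 2 and 1 of 139. Among lipid pathways, glycerophospholipid metabolism had 2 and 0 of 77, PPAR signaling 2 and 1 of 53, sphingolipid metabolism 0 of 42 and biosynthesis of unsaturated fatty acids 0 of 27. ECM-receptor interaction had 1 and 0 of 68. The median log2FC lay between -0.02 and 0.09 in these 12 pathways, where all tested genes had 0.05.

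**Figure D5:**
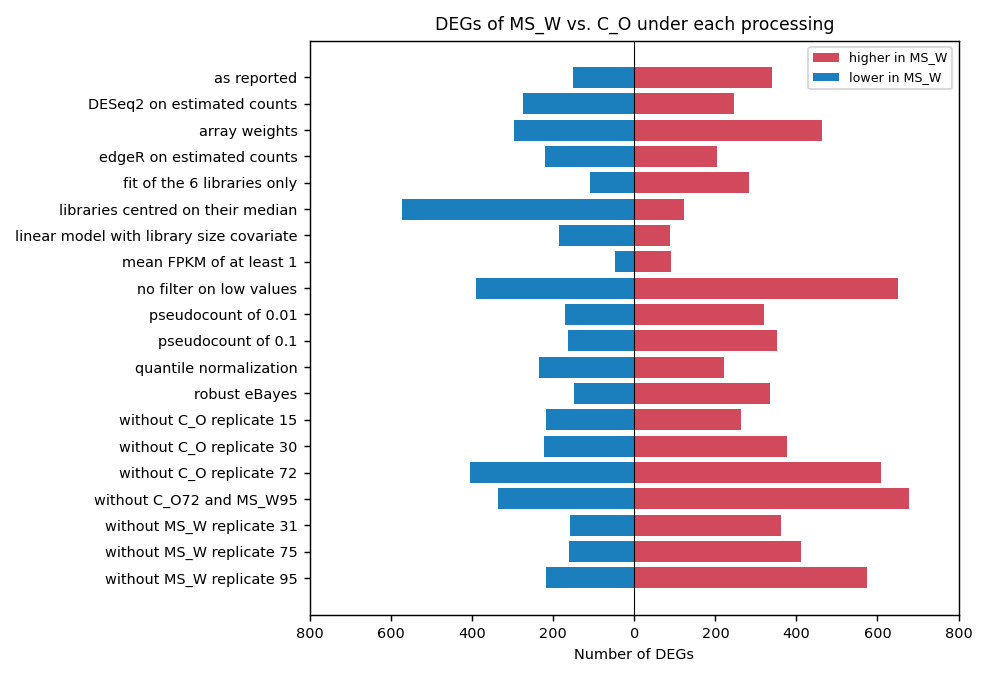
Number of DEGs of MS_W vs. C_O higher (right) and lower (left) in MS_W under each processing. The reported split of 339 and 152 becomes 123 and 574 with libraries centred on their medians, and the highest total without a library left out, 1042, came without a filter on low values.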

How the data were processed

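Poly(A) RNA, from whole brain by the authors' description, was sequenced from strand-marked libraries, 1 per mouse. The authors trimmed reads (cutadapt 1.9 in the submitters' processing notes), aligned them with HISAT2 2.0.4 to mm10, assembled transcripts with StringTie 1.3.4d and estimated expression with Ballgown, and the deposited values are FPKM and estimated counts per gene. The deposited estimated counts follow FPKM times transcript length (median deviation 0.03559% over 2137 genes with 1 transcript) and are not counts of single reads. They were rounded for edgeR and DESeq2, which were alternatives.

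Genes averaging 0.1 FPKM or more over the 12 libraries were kept, and their log2(FPKM + 1) was fitted by limma 3.58.1 (lmFit, eBayes with trend, R 4.3.3), with 1 fit of the 4 groups and the contrast MS_W minus C_O. p was adjusted by Benjamini-Hochberg over 21393 genes. Where the same fit gives MS_W and C_O against C_W, the 2 contrasts share C_W. An exact two-sided permutation test of 3 against 3 cannot go below 0.1. On simulated MS_W vs. C_O data with the spread of each gene in the libraries, limma recovered 78.5% of 200 genes changed 4-fold among 21393, with 16 other calls, and the DEG criteria 95% with 489 others.

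Named genes were, from the 6 libraries, the 6 largest log2FC in each direction among DEGs without overlap at a mean FPKM of at least 1. From the 4 libraries they were the 4 largest in each direction, and from each of 32 lists up to 2 DEGs per direction and the most abundant member. Members, lists and rules were chosen with earlier results of these data known, and genes outside the rules are marked as chosen after their values were seen. The cholesterol and scaffold lists are described by counts, and some named members are not reported here. Alternatives were other pseudocounts, filters, normalizations, models and tools, edgeR 4.0.16, DESeq2 1.42.0, and leaving out libraries. Left-out-pair and pathway counts and no-overlap counts under other scalings were added after seeing the data. Coordinates are those of the table, and GENCODE M21 gave identical ends for 94.28% of the genes found there. Lipid and behavior data were not analysed here. Counts and plots came from Python 3.11.15 with matplotlib 3.10.9 and pandas 2.3.3.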

Additional observations from a re-analysis of the deposited data

How the results depend on the processing

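The number of DEGs, 491, was 760 with array weights and 274 by the linear model of log2(FPKM + 1) with the library size covariate. It was 138 at a mean FPKM of at least 1, 1042 without a filter and 80 with the fold criterion applied to the log2FC. Without both C_O72 and MS_W95 it was 1015. Leaving out 1 library gave 482 to 1015, the most without C_O72 and 790 without MS_W95. Genes past the adjusted threshold, 0 as reported, were 83 by DESeq2, 56 with array weights, 1 by the linear model, 0 to 31 with 1 library left out (31 without C_O72, 10 without MS_W95, 4 without C_O30, 3 without C_O15) and 69 without both C_O72 and MS_W95. Genes without overlap, 2472, were 3718 to 7067 with 1 library left out and 10287 without both, since fewer libraries separate more easily. Of the DEGs followed through these alternatives, some turned direction, and only in the linear model. Its differences in log2(FPKM + 1) were 0.61 for Gm38182, -0.22 for AW551984 and -0.90 for Arhgap36. They were -0.02 for Tcf7l2, -0.12 for C1ql2 and -0.54 for Igsf1, and the cause was not tested. Some named genes that were no DEGs turned elsewhere. Scd2, for example, went from -0.70 to 0.12 with array weights, and Mt2 from -0.19 to 0.31 without C_O72. Of the 32 lists, the sign of the median depended on scaling for blood, astrocytes, sphingolipids, glycerophospholipids and monoamine and muscarinic receptors. No paired analysis was possible because the groups share no mouse numbers. The p-values cover the spread between these mice only, and differences below this spread could not be seen at 3 mice a group.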
